A study of Mus musculus with 8 samples.

Results

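Eph receptors and ephrins were followed in mouse intestinal organoids cultured with or without RANKL. The set held 10 genes, the receptors Ephb2, Ephb3, Ephb4, Epha1, Epha2 and Epha4 and the ephrins Efnb1, Efnb2, Efna1 and Efna4. They were taken by name from the count table as genes that position cells along crypts, and all 10 were found among its 54532 listed genes. The whole family as listed has 22 genes, and the other 12 were described beside the 10. Bulk 3′ mRNA sequencing covered 8 libraries, 4 of control organoids (treatment label control) and 4 of organoids treated with RANKL, the ligand of the receptor RANK. No agent other than RANKL is labelled as differing between the groups. Organoids are epithelial structures grown from crypts in Matrigel without the surrounding stroma. The study's cultures received EGF, NOGGIN and R-spondin, so WNT signalling was raised from outside and BMP signalling was antagonized in the medium. The study still reports that RANKL induced Bmp2 and its targets Id2 and Id3 in organoids. Its mouse lines were on a C57BL/6J background. An age range is stated for the mice of the study as a whole. The age and number of the donors of these organoids, how much RANKL was given and for how long, and whether the libraries came from separate cultures are not given in the sources used here, so the p-values measure the spread between these libraries, which may be technical.

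Eph receptors are the largest family of receptor tyrosine kinases, and their ligands, the ephrins, are themselves anchored in the membrane, so that signalling needs contact between cells. EphA receptors mostly bind ephrin-A ligands, which are tethered by a GPI anchor, and EphB receptors mostly bind ephrin-B ligands, which cross the membrane. Binding sends a forward signal into the cell with the receptor and a reverse signal into the cell with the ephrin, and often ends in repulsion. In the intestine WNT signalling raises Ephb2 and Ephb3 at the crypt base and lowers Efnb1 and Efnb2 there, so that receptor and ligand run in opposite gradients along the crypt axis and cells are sorted to their places. Paneth cells depend on Ephb3 for their place at the base.

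The total counts on genes ran from 583663 to 7807298 per library, 13.4 times apart, with a median of 3911808 in the control group and 1613410 in the RANKL group. Levels are given as CPM, the count scaled to the library total and by TMM factors. A single count (1) was worth from 0.128 CPM, in the deepest library, to 1.71 CPM, in the shallowest, where the 3 counts that a 0 would allow come to 5.14 CPM. Such floors cover counting error only, since molecular identifiers are not mentioned and copies made by PCR are counted as reads. Each transcript was read near its 3′ end, so long transcripts give no more counts than short ones. CPM are therefore set side by side between genes, although how well each 3′ end is annotated and mapped was not examined. Of 6 epithelial markers all were tested, 0 rose and 1 fell, Krt18 (log2 fold change -0.70, edgeR adjusted p = 9.4e-07). Their summed level, most of it Cdh1, was 5310 to 6234 CPM in control and 5411 to 5823 CPM in RANKL libraries. All 5 tested markers of M cells, the antigen-sampling cells that RANKL induces, rose, while Gp2, a marker of mature M cells, had 0 counts in every library. Of the 5, Spib and Tnfaip2 entered the test through the RANKL group alone.

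Of the 10 genes, 9 passed the filter on low counts, 2 rose with RANKL (Epha4 and Efnb1), 3 fell (Ephb2, Efnb2 and Efna4) and 4 did not pass an adjusted p of 0.05 in edgeR's quasi-likelihood test with Benjamini-Hochberg adjustment. Among all 9971 genes tested, 25.9% were called, 13.6% as higher and 12.4% as lower. The median log2 fold change of the 9 genes was -0.08, beside 0.00 for all genes tested. The RANKL libraries all lay above or all below the control libraries for 4 of the 10 genes, and this held for 24.6% of the genes tested. The list as a whole was not compared with chance. In bulk RNA, fewer cells of a type and less RNA per cell cannot be told apart, which holds for each value below.

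**Figure D1:**
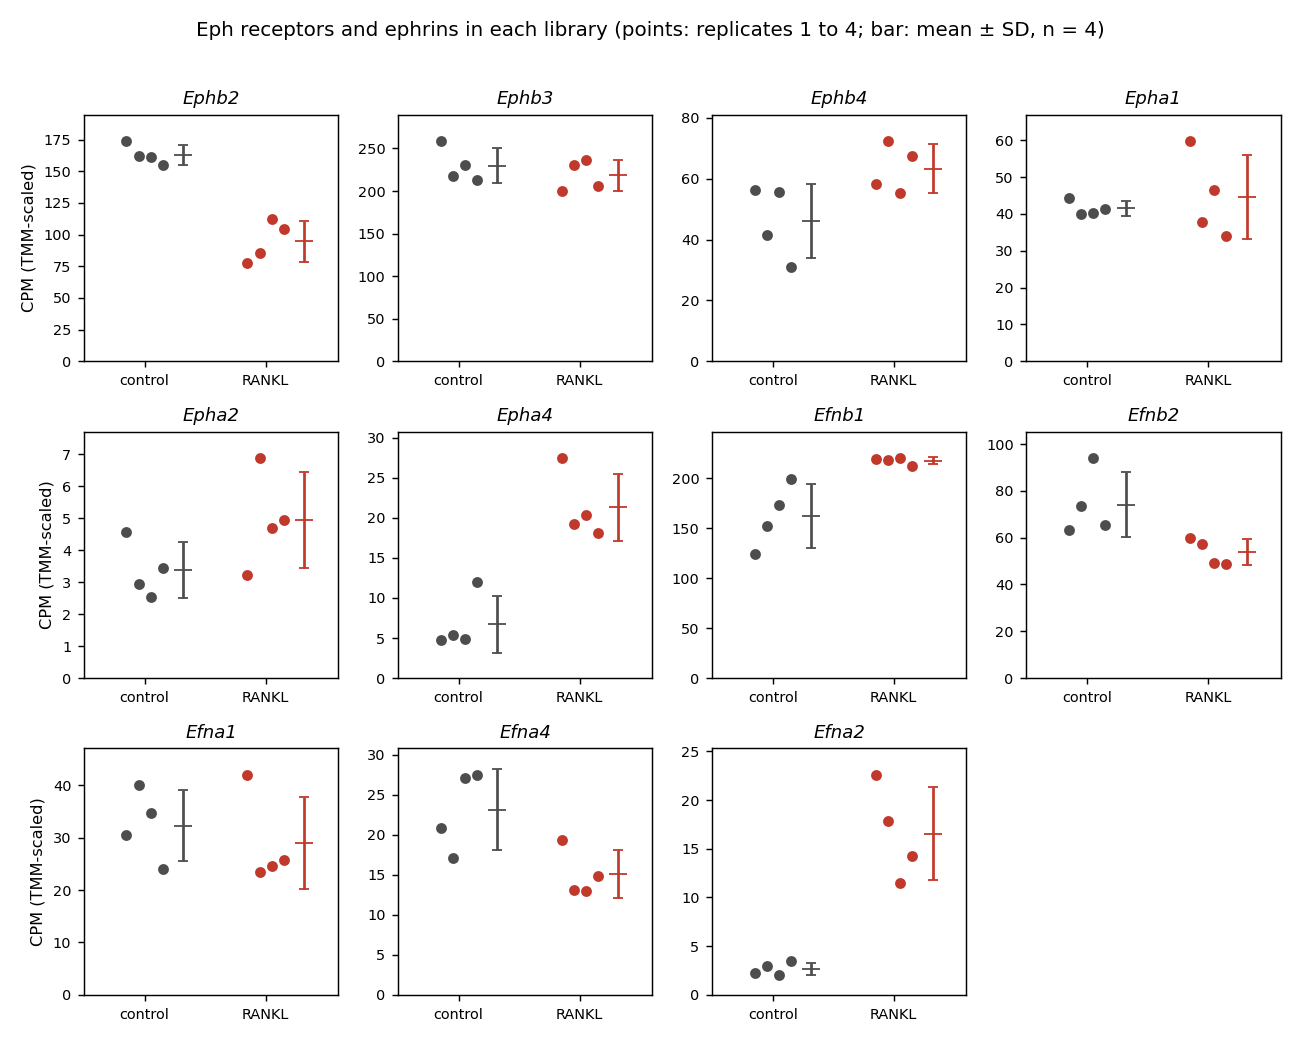
Level of the 10 genes and of Efna2 in each library, as CPM after TMM scaling on a linear axis that starts at 0. Points are the 4 libraries of a group in order of replicate number, and the bar beside them is the mean ± SD (n = 4). The groups do not overlap for Ephb2, Epha4, Efnb1, Efnb2 and Efna2.

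The upstream sequences of the 4 genes of the set whose groups did not overlap are shown because these genes carry the differences, 1 receptor and 1 ephrin in each direction. Each is the 250 bases before the RefSeq start on GRCm38.p6, read 5′ to 3′ on the strand of the gene, and lies before the first transcribed base of its gene. They are chr4:136836013-136836262 on the minus strand for Ephb2, chr1:77515089-77515338 on the minus strand for Epha4, chrX:99135811-99136060 on the plus strand for Efnb1 and chr8:8661243-8661492 on the minus strand for Efnb2. Capitals mark a match to 1 of 4 motifs searched on both strands: the NF-κB consensus, TCF/LEF (the letters CTTTGAA or the variants CTTTGAT and also CTTTGTA as well as CTTTGTT), the SMAD palindrome GGCGCC and the PU box GAGGAA.
Ephb2: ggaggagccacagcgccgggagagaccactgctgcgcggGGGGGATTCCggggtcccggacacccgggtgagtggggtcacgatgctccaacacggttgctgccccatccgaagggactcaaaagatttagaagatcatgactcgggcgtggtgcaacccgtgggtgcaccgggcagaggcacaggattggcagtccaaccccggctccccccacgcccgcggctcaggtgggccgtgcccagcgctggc
Epha4: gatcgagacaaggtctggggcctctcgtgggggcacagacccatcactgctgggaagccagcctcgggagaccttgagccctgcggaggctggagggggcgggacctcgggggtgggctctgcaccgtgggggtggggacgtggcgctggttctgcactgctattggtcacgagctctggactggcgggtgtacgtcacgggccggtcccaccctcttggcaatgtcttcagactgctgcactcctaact
Efnb1: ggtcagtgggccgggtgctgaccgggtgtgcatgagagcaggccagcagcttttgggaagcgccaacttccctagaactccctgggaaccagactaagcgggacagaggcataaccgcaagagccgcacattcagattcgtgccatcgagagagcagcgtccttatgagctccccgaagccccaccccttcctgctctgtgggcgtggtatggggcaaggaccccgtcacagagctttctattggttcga
Efnb2: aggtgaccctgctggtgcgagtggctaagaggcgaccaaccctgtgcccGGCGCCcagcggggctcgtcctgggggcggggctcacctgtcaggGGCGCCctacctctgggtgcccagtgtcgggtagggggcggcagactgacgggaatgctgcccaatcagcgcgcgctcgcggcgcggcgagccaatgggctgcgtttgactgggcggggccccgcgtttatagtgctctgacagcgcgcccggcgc
The Ephb2 sequence holds 1 NF-κB match, GGGGGATTCC, from 211 to 202 bases before the start, and the Efnb2 sequence holds 2 GGCGCC matches, from 201 to 196 and from 156 to 151 bases before it. None of the 4 motifs was found in the windows of Epha4 and Efnb1. Among 32851 promoters of the same length, 7.25% held the NF-κB consensus, 14.8% a TCF/LEF motif, 9.59% GGCGCC and 23.3% GAGGAA. All 10 genes and Efna2 were matched to RefSeq, with 12 start sites in all. TCF/LEF letters were found for Epha2 (CTTTGAA, from 209 to 203 bases before the start) and, on the opposite strand, for Efna4, and for none of the EphB receptors. GGCGCC was also found for Ephb4, Epha1, Efna1 and Efna2, GAGGAA on the opposite strand for Efna1, and none of the motifs for Ephb3. No match overlapped another. These matches describe letters in a window and are not binding sites.

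Among the EphB receptors, which sort cells along the crypt, Ephb2 fell with RANKL, while Ephb3 and Ephb4 did not pass the test. The study itself already reports lower Ephb2 in organoids given RANKL. Ephb2 (chromosome 4, 136647539 to 136835988, minus strand, GRCm38), a receptor graded from the crypt base upwards, was at 174, 162, 161 and 155 CPM in control replicates 1 to 4. With RANKL, replicates 1 to 4 had 77.5, 85.4, 112 and 104 CPM. All 4 RANKL values were under the lowest control value, with 2696 counts behind the control values and 577 behind the RANKL values. The mean level went from 163 ± 7.8 to 94.8 ± 16.1 CPM (SD, n = 4 each), and the log2 fold change was -0.76 with a standard error of 0.12 (edgeR adjusted p = 8e-06). The difference kept its call without any single library, with log2 fold changes between -0.85 and -0.70, and with the log2 library total in the fit (-0.66, edgeR adjusted p = 0.00078).

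Ephb3 (chromosome 16, 21204755 to 21223305, plus strand), the receptor that keeps Paneth cells at the crypt base, was the most abundant gene of the family in the control libraries. It was at 258.5, 218, 230.1 and 213 CPM in control replicates 1 to 4. With RANKL, replicates 1 to 4 had 200.2, 231, 237 and 206.5 CPM. The groups overlapped over most of their range. On the log2 scale Ephb3 differed by -0.08 with a standard error of 0.10 (edgeR adjusted p = 0.62). Of 7 Paneth cell markers, 1 fell and none rose, and their summed level was 5028 to 6335 CPM in control and 4934 to 5914 CPM in RANKL libraries.

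Ephb4 (chromosome 5, 137350109 to 137378669, plus strand), best known as the receptor for ephrin-B2 in veins, was at 56.2, 41.6, 55.5 and 31.0 CPM in control replicates 1 to 4. With RANKL, replicates 1 to 4 had 58.1, 72.3, 55.3 and 67.6 CPM. Control replicates 1 and 3 reached the lower RANKL values, and the shallowest control library had the lowest value. Its log2 fold change of 0.37 with a standard error of 0.15 did not pass the test (edgeR adjusted p = 0.068). It passed without control replicate 1 (0.47, edgeR adjusted p = 0.03) and without control replicate 3 (0.42, adjusted p = 0.032), and it was 0.74 (adjusted p = 0.0084) with every library thinned to the shallowest total and 0.66 (adjusted p = 0.014) with the log2 library total in the fit. No endothelial marker of 6 passed the filter on low counts, their summed level was 1.77 to 3.44 CPM in control and 1.10 to 2.09 CPM in RANKL libraries, and Cdh5, Kdr and Tie1 were at 0 counts throughout.

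As shares of all EphB receptor counts in a library, which do not depend on scaling between libraries, Ephb2 held 35.6% to 38.8% in control and 22.0% to 27.7% in RANKL libraries. The share of Ephb3 was 51.4% to 53.4% in control and 54.6% to 59.6% in RANKL libraries, and that of Ephb4 was 7.76% to 12.4% and 13.7% to 18.6%. None of these 3 shares overlapped between the groups. Shares within a class are not independent, here and in the classes below, since a lower share of Ephb2 alone raises those of Ephb3 and Ephb4. The summed EphB level was 439 ± 38.3 CPM in control and 377 ± 29.2 CPM in RANKL libraries (SD, n = 4 each), with overlap. Ephb1, a receptor known mainly from neurons, had 3 counts in all, and Ephb6, whose kinase domain lacks activity, had none.

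The 2 ephrin-B ligands that were tested went opposite ways, Efnb1 up and Efnb2 down. Efnb1 (chromosome X, 99136130 to 99148991, plus strand), the main ephrin partner of Ephb2 and Ephb3 in the crypt, was at 124, 152, 174 and 199.5 CPM in control replicates 1 to 4. In RANKL replicates 1 to 4 it was at 219.6, 218, 220.1 and 212 CPM. The RANKL values lay close together and above every control value, while the control values were spread widely, lowest in the deepest library and highest in the shallowest. The mean went from 162 ± 31.9 to 217.5 ± 3.7 CPM (SD, n = 4 each), which gave a log2 fold change of 0.47 and a standard error of 0.12 (edgeR adjusted p = 0.003). The call was lost when the log2 library total was added to the fit (0.30, edgeR adjusted p = 0.1). It held with every library thinned to the shallowest total (0.46, edgeR adjusted p = 0.0092) and without any single library, at 0.34 to 0.55.

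Efnb2 (chromosome 8, 8617434 to 8661242, minus strand), a ligand of EphB receptors and the partner of Ephb4 in vessels, was at 63.4, 73.5, 94.02 and 65.4 CPM in control replicates 1 to 4. In RANKL replicates 1 to 4 it was at 59.7, 57.1, 49.0 and 48.9 CPM. All RANKL values lay below all control values, although control replicate 1 and RANKL replicate 1 were close. The fall was -0.51 on the log2 scale with a standard error of 0.14 (edgeR adjusted p = 0.0079), and it stayed between -0.61 and -0.37 with each library left out in turn, past the threshold each time.

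Within the ephrin-B counts of a library, Efnb1 held 64.6% to 74.8% in control and 77.7% to 81.3% in RANKL libraries, and Efnb2 held 24.5% to 35.0% and 18.0% to 21.1%. The summed level of the class was 238 ± 37.4 CPM in control and 273 ± 9.09 CPM in RANKL libraries (SD, n = 4 each), with overlap. Efnb3, the ephrin-B ligand known from the nervous system, had 29 counts in control and 8 in RANKL libraries and was not tested.

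**Figure D2:**
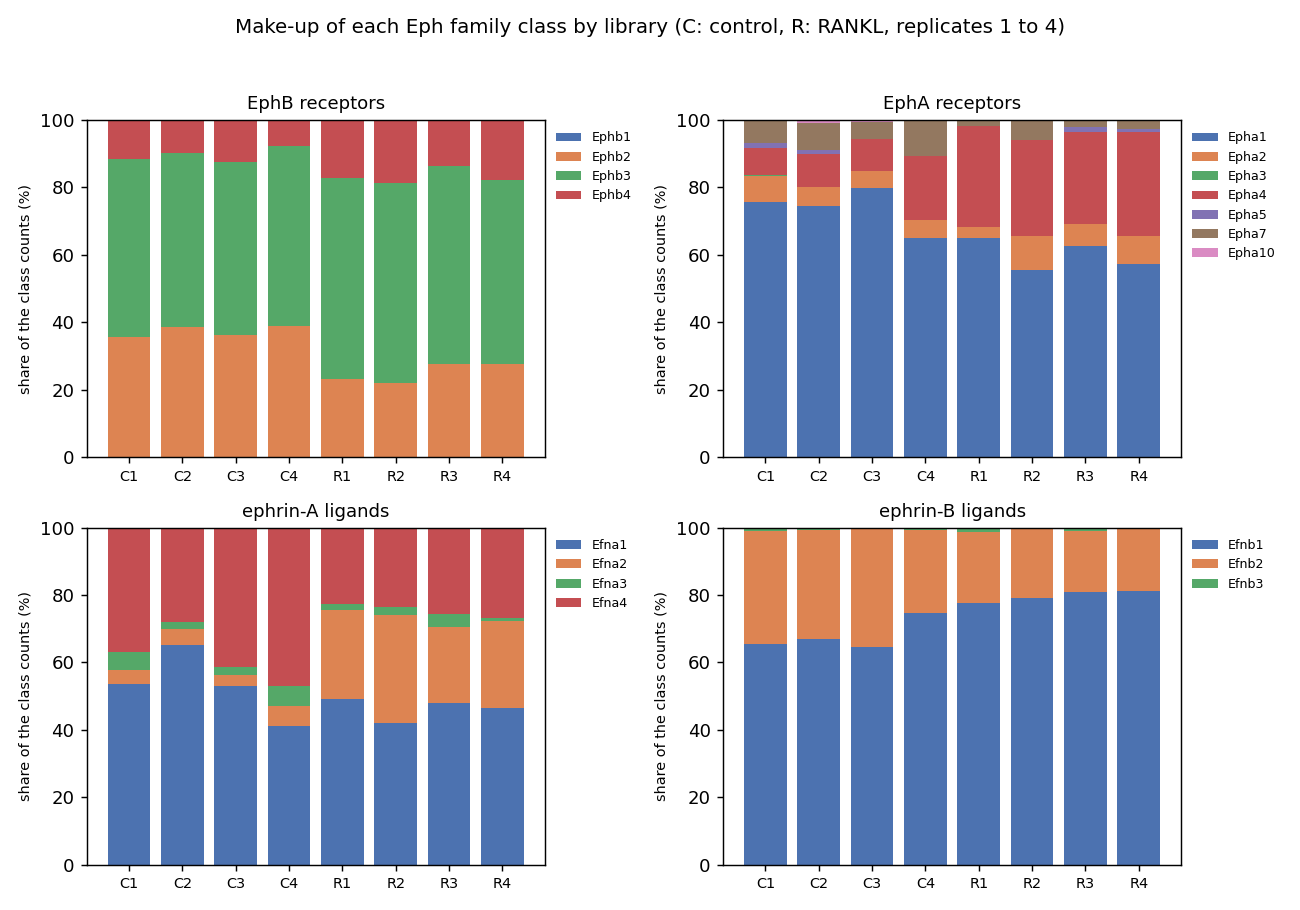
Share of each gene in the counts of its class, in percent, for EphB receptors, EphA receptors, ephrin-A ligands and ephrin-B ligands, 1 bar per library (C for control, R for RANKL, replicates 1 to 4). Ephb2 takes 35.6% to 38.8% of the EphB counts in control bars and 22.0% to 27.7% in RANKL bars, and Efna2 takes 3.10% to 5.88% and 22.4% to 32.1% of the ephrin-A counts.

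Ratios of 2 genes within a library compared receptors with ligands of their class, or the paralogs with each other, and again need no scaling. Such ratios can still differ with library depth, which was not fitted for them. They were taken on the log2 scale with 0.5 added to each count, over 7 pairs that share genes, and tested with 2-sided exact permutation tests over 70 assignments. With 4 libraries against 4, the smallest p these tests can give is 0.0286.

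The ratio of Ephb2 to Ephb3 was 0.672, 0.744, 0.702 and 0.727 in control replicates 1 to 4. With RANKL it was 0.390, 0.371, 0.474 and 0.506. The groups did not overlap, and the geometric mean went from 0.711 to 0.432, a difference of -0.72 on the log2 scale (exact permutation p = 0.0286, adjusted p = 0.05 over 7 pairs). The ratio of the receptor Ephb2 to its ligand Efnb1 was 1.40, 1.07, 0.930 and 0.777 in control and 0.355, 0.392, 0.510 and 0.493 in RANKL replicates 1 to 4. Its geometric mean went from 1.02 to 0.433, a difference of -1.24 on the log2 scale with no overlap (exact permutation p = 0.0286, adjusted p = 0.05). The control ratios lay on both sides of 1, and in every RANKL library Ephb2 had fewer counts than Efnb1. The highest control ratio, 1.40, was in the deepest library and the lowest, 0.777, in the shallowest. With every library thinned to the shallowest total the log2 difference was -1.30. The part of depth in this ratio was not tested further.

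For Ephb3 to Efnb1 the geometric mean ratio was 1.43 in control and 1.00 in RANKL libraries, a log2 difference of -0.52 (exact permutation p = 0.0571, adjusted p = 0.08). The groups met where the lowest control value, 1.07, lay under the highest RANKL value, 1.08, and without control replicate 1 the difference was -0.34. The ratio of Efnb1 to Efnb2 went from 2.18 to 4.04, a log2 difference of 0.89, and every RANKL value (3.64 to 4.47) lay above every control value (1.85 to 3.03; exact permutation p = 0.0286, adjusted p = 0.05). Its highest control value was in the shallowest library, and after thinning to the shallowest total the log2 difference was 1.10. The ratio of Ephb4 to its ligand Efnb2 went from 0.614 to 1.18, a log2 difference of 0.94 (1.38 where all libraries were thinned to the shallowest total), again without overlap (exact permutation p = 0.0286, adjusted p = 0.05). Ephb4 had fewer counts than Efnb2 in all 4 control libraries, from 0.481 in the shallowest to 0.886 in the deepest. Its ratio in RANKL libraries was 0.973 to 1.38. The adjusted p of 0.05 of these 4 pairs is at the threshold and not under it, and 4 libraries a group cannot give a lower one with 4 of 7 pairs at the smallest p.

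For the EphA pairs the groups overlapped. The ratio of Epha2 to Efna1, its best known ligand, had a geometric mean of 0.111 in control and 0.184 in RANKL libraries (log2 difference 0.72, exact permutation p = 0.143, adjusted p = 0.167), and that of Epha1 to Efna1 was 1.30 and 1.54 (log2 difference 0.25, exact permutation p = 0.286). Both moved with the processing. Epha2 to Efna1 was at 0.34 after thinning to the shallowest total and at 0.48 without RANKL replicate 2. Epha1 to Efna1 was at 0.47 after thinning, at 0.12 without control replicate 2, and at 0.15 without RANKL replicate 3.

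**Figure D3:**
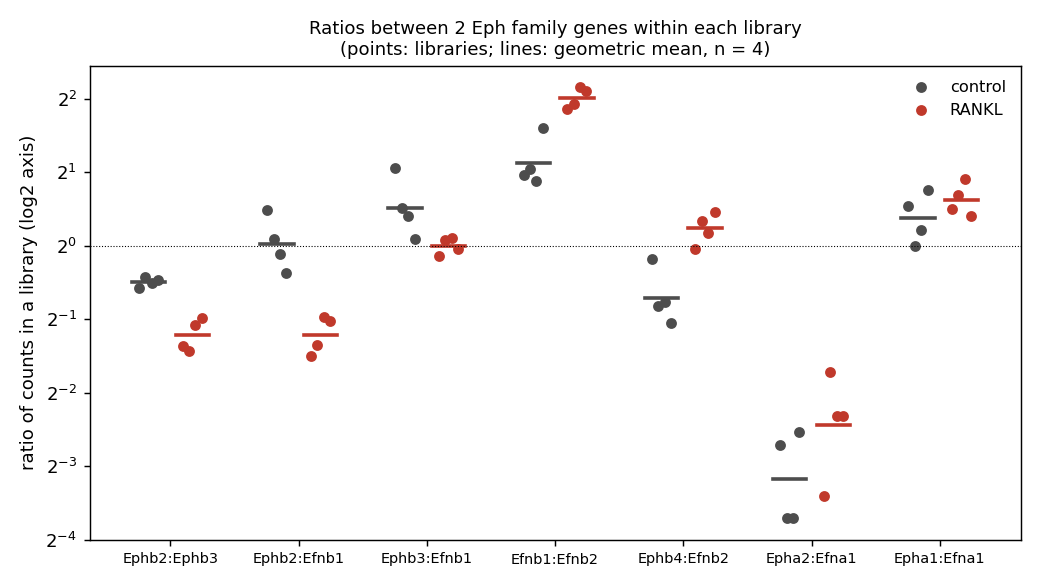
Ratio of the counts of 2 genes within each library, on a log2 axis, for 7 pairs. Points are the 4 libraries of a group, lines are geometric means, and the dotted line marks equal counts. Control and RANKL points are apart for Ephb2 to Ephb3, Ephb2 to Efnb1, Efnb1 to Efnb2 and Ephb4 to Efnb2, and overlap for the others.

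Of the EphA receptors in the set, Epha4 rose with RANKL, Epha1 did not pass the test and Epha2 had too few counts to be tested. Epha4 (chromosome 1, 77367185 to 77515088, minus strand), a receptor that binds ephrins of both classes, was at 4.71, 5.37, 4.82 and 12.0 CPM in control replicates 1 to 4. With RANKL, replicates 1 to 4 had 27.5, 19.3, 20.3 and 18.1 CPM. The lowest RANKL library lay above the highest control library, and that control library, the shallowest, had 7 counts. The mean went from 6.73 ± 3.5 to 21.3 ± 4.2 CPM (SD, n = 4 each). The fold fitted by edgeR was 3.81, a log2 fold change of 1.93 with a standard error of 0.26 (edgeR adjusted p = 1.1e-06). Leaving out each library in turn gave 1.82 to 2.05. All 4 RANKL libraries but 1 control library reached the 5.39 CPM that the low count filter asks of 4 libraries, so Epha4 entered the test through the RANKL group.

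Epha1 (chromosome 6, 42358487 to 42373268, minus strand), the most abundant EphA receptor here, was at 44.4, 40.0, 40.3 and 41.3 CPM in control replicates 1 to 4. With RANKL, replicates 1 to 4 had 59.7, 37.9, 46.4 and 34.1 CPM. The RANKL values lay on both sides of the control values and were more widely spread. The log2 fold change was 0.03 with a standard error of 0.16 (edgeR adjusted p = 0.91). Its sign changed with the processing, and it was 0.47 (adjusted p = 0.13) after thinning to the shallowest total. Epha2 (chromosome 4, 141301240 to 141329384, plus strand), the receptor for ephrin-A1 in many epithelia, was at 4.58, 2.95, 2.53 and 3.44 CPM in control and 3.23, 6.88, 4.69 and 4.94 CPM in RANKL replicates 1 to 4. These rest on 59 and 30 counts, both shallowest libraries had 2, and a 2-sided exact permutation test of the means gave p = 0.114.

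Of EphA receptor counts, Epha1 held 64.9% to 79.9% in control and 55.6% to 64.9% in RANKL libraries, and Epha4 held 8.03% to 18.9% and 27.5% to 30.6%, without overlap. The class summed to 56.6 ± 5.79 CPM in control and 73.4 ± 13.8 CPM in RANKL libraries (SD, n = 4 each), with overlap. Outside the set, Epha7 had 61 counts in control and 13 in RANKL libraries (4.41 ± 1.81 and 2.24 ± 1.26 CPM; 2-sided exact permutation p = 0.0857, n = 4 each). Epha5 had 9 and 3 counts, Epha10 had 3 and 0, Epha3 had 1 and 0, and Epha6 and Epha8 had none.

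The ephrin-A ligands differed among themselves. Efna4 of the set fell, Efna1 did not pass the test, and Efna2, the other ephrin-A gene tested, had the largest fold change of the family. Efna1 (chromosome 3, 89271733 to 89281142, minus strand), a ligand that inflammatory cytokines induce in endothelium, was at 30.4, 40.0, 34.7 and 24.1 CPM in control replicates 1 to 4. In RANKL replicates 1 to 4 it was at 42.0, 23.4, 24.5 and 25.8 CPM, so that 3 RANKL libraries lay near the lowest control value and 1 above all of them. Its log2 fold change was -0.32 with a standard error of 0.18 (edgeR adjusted p = 0.22).

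Efna4 (chromosome 3, 89333390 to 89338028, minus strand), a GPI-anchored ligand encoded close to Efna1, was at 20.9, 17.2, 27.1 and 27.5 CPM in control replicates 1 to 4. With RANKL, replicates 1 to 4 had 19.4, 13.1, 13.0 and 14.8 CPM. The groups overlapped, since RANKL replicate 1 exceeded control replicate 2. The log2 fold change was -0.62 with a standard error of 0.22 (edgeR adjusted p = 0.033), and the exact permutation test gave p = 0.0571. The call did not hold without control replicate 3 (-0.49), RANKL replicate 2 (-0.58), RANKL replicate 3 (-0.56) or RANKL replicate 4 (-0.64), with edgeR adjusted p from 0.076 to 0.11, nor with DESeq2 (-0.63, adjusted p = 0.083) and limma-voom (-0.58, adjusted p = 0.056). Its exons overlap those of 4731419I09Rik on the other strand, and the authors counted by strand.

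Efna2 (chromosome 10, 80179482 to 80190010, plus strand), a GPI-anchored ligand known from axon guidance, was at 2.29, 2.95, 2.03 and 3.44 CPM in control and at 22.6, 17.9, 11.5 and 14.3 CPM in RANKL replicates 1 to 4. Every RANKL value was above every control value, with 39 counts in control and 88 in RANKL libraries. The log2 fold change fitted by edgeR was 2.65 with a standard error of 0.31, or 6.26-fold (adjusted p = 5.8e-08), and leaving out each library in turn gave 2.54 to 2.81. None of the control libraries reached the level of the low count filter, so this gene too entered the test through the RANKL group. Efna3 had 37 and 8 counts, and Efna5 had none.

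The summed ephrin-A level was 60.5 ± 3.81 CPM in control and 62.0 ± 15.9 CPM in RANKL libraries (SD, n = 4 each), while its make-up differed. Efna2 held 3.10% to 5.88% of ephrin-A counts in control and 22.4% to 32.1% in RANKL libraries, and Efna4 held 27.9% to 47.1% and 22.6% to 26.7%, neither with overlap. Efna1 held 41.2% to 65.1% and 42.0% to 49.1%.

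**Figure D4:**
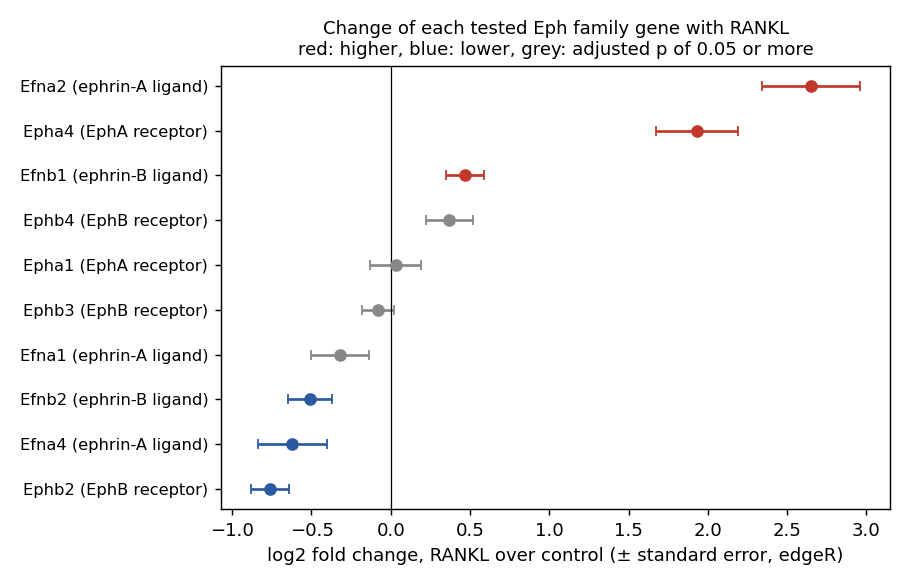
Log2 fold change of RANKL over control from edgeR, for the 10 Eph family genes that were tested, ordered by size. Bars are approximate standard errors, derived from the F statistic of the test. Efna2 (2.65), Epha4 (1.93) and Efnb1 (0.47) are drawn in red as higher, Efnb2 (-0.51), Efna4 (-0.62) and Ephb2 (-0.76) in blue as lower, and the 4 in grey did not pass an adjusted p of 0.05.

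By mean level in the control libraries the order was Ephb3, Ephb2, Efnb1, Efnb2, Ephb4, Epha1, Efna1, Efna4, Epha4 and Epha2, from 230 to 3.38 CPM. Neighbours in this order overlapped between Ephb2 and Efnb1, between Ephb4 and Epha1 and between Efna1 and Efna4, and Epha1 and Efna1 met at 40.0 CPM. In the RANKL libraries Ephb3 and Efnb1 stood together at 218.5 and 217.5 CPM, with Ephb2 apart from both at 94.8 CPM, and Ephb4, Efnb2 and Epha1 followed with overlap at 63.3, 53.7 and 44.5 CPM. Over the whole family of 22 genes, 10 were tested, 3 rose and 3 fell, and 4 had no counts in any library. Among all 9971 genes tested, 13.6% rose and 12.4% fell. Of the 3 that rose, Epha4 and Efna2 entered the test through the RANKL group, where they are high.

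Genes that act with the family were described by list, without a test of the list. Counts for each list below stand beside 13.6% higher and 12.4% lower among all 9971 genes tested. The median log2 fold change of all genes tested was 0.00. Of 40 genes of forward signalling below Eph receptors, 35 were tested, 7 rose and 6 fell, with a median log2 fold change of 0.04. Dok1, an adaptor of tyrosine kinases, rose by 1.65 on the log2 scale, with means of 10.6 ± 2.14 and 33.3 ± 5.71 CPM (SD, n = 4 each, edgeR adjusted p = 2.3e-07). Kalrn, a guanine nucleotide exchange factor (1.05, adjusted p = 0.00016), and the adaptor Nck2 (0.68, adjusted p = 0.0049) rose as well. Ngef, an exchange factor that binds Epha4, fell from 18.9 ± 3.78 to 7.25 ± 1.84 CPM (log2 fold change -1.56, edgeR adjusted p = 1.6e-05), as did Vav3, another exchange factor (-0.81, adjusted p = 0.036).

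Of 26 genes for ephrin shedding and reverse signalling, 18 were tested, 5 rose and 2 fell, with a median of 0.06. Rhbdl2, a rhomboid protease that can cut ephrin-B3, rose by 2.08 on the log2 scale, with means of 2.98 ± 1.14 and 12.5 ± 4.20 CPM (SD, n = 4 each, edgeR adjusted p = 4.6e-06). The gap junction gene Gjb2 (1.88, adjusted p = 4.1e-06) and Stat3, a factor that ephrin-B1 can recruit (0.47, adjusted p = 0.0033), rose. Rhbdl2 reached the level of the low count filter in 0 control libraries and Gjb2 in 1, so both entered the test through the RANKL group where they are high. Git1, a scaffold in ephrin-B reverse signalling (-0.71, adjusted p = 0.00027), and Aph1a, a subunit of the γ-secretase that cuts ephrin-B stubs (-0.52, adjusted p = 0.024), fell.

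WNT target genes of the crypt, the class to which Ephb2 and Ephb3 belong, were divided. Of 19 listed genes 13 were tested, 3 rose and 3 fell, with a median log2 fold change of 0.11. Of all genes tested, 13.6% rose and 12.4% fell. The stem cell receptor Lgr5 had means of 45.1 ± 3.53 CPM in control and 10.3 ± 2.56 CPM in RANKL libraries (SD, n = 4 each) and fell (log2 fold change -2.22, edgeR adjusted p = 3e-10), and Axin2, a feedback inhibitor of WNT (-0.90, adjusted p = 0.00073), and the growth regulator Myc (-0.91, adjusted p = 0.029) fell with it. Myc entered the test through the control group. Cd44, a hyaluronan receptor of crypt cells (1.61, adjusted p = 5.2e-12), and Ascl2, a stem cell transcription factor (1.10, adjusted p = 1.7e-05), rose. Ephb2 at -0.76 had the direction of Lgr5 and Axin2, and Ephb3 at -0.08 did not pass the test. The study already reports that RANKL lowered Lgr5, Axin2 and Ephb2 and raised Ascl2 and Cd44 in organoids. Of 6 stem cell markers 1 rose and 2 fell. Their summed level was 1925 to 2382 CPM in control and 1687 to 1884 CPM in RANKL libraries, without overlap. Most of that sum was Olfm4 and Slc12a2, neither of which passed the test (edgeR adjusted p = 0.22 and 0.055). The part of stem cell number in the Ephb2 values was not tested.

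Of 16 partners in cell adhesion, through which Eph signalling separates cells, 15 were tested, 5 rose and 3 fell, with a median of 0.15. Of all genes tested, 13.6% rose and 12.4% fell. The nectins, adhesion molecules of adherens junctions, were divided. Nectin2 rose by 1.37 on the log2 scale, with means of 227 ± 12.6 and 588 ± 26.7 CPM (SD, n = 4 each, edgeR adjusted p = 8.6e-13) and Nectin1 rose as well (1.46, adjusted p = 9.7e-08), while Nectin3 fell (-0.76, adjusted p = 9.2e-06). The catenins Ctnnd1 (0.88, adjusted p = 0.00032) and Jup (0.72, adjusted p = 8.3e-06) rose.

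Markers of other cell types in which Eph genes are known were low beside the epithelial markers, though not all below Epha4, Efna2 and Epha2. Of 6 blood cell markers none passed the filter, with sums of 0.507 to 2.15 CPM in control and 1.38 to 9.69 CPM in RANKL libraries. Of 8 stromal markers 2 were tested and 1 rose, Pdgfrb (log2 fold change 2.53, edgeR adjusted p = 7e-08), which entered the test through the RANKL group alone. Vim, with means of 18.0 CPM in control and 14.7 CPM in RANKL libraries, did not pass (edgeR adjusted p = 0.68). The stromal sum was 15.5 to 49.9 CPM in control and 32.4 to 46.8 CPM in RANKL libraries, and Dcn had 0 counts. The 4 markers of neurons and glia summed to 12.1 to 20.3 CPM in control and 7.69 to 10.3 CPM in RANKL libraries. M cell markers summed to 50.0 to 59.1 CPM in control and 1828 to 2066 CPM in RANKL libraries, and so moved with every difference described here. Most of the RANKL sum was Spib, with a mean of 1607 CPM. Spib and Tnfaip2 passed the low count filter through the RANKL group alone. The part of M cells in the Eph and ephrin values was not tested. Of 8 enterocyte markers 1 rose and none fell, of 5 enteroendocrine markers 1 rose and none fell, and none of 5 goblet cell markers or of the 1 tuft cell marker tested passed.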

How the data were processed

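Whole libraries of organoid RNA, 4 control and 4 RANKL, were sequenced from the 3′ end as single reads of 50 bases. The authors trimmed reads with BBDuk, removed abundant sequences with bowtie2, aligned to GRCm38 (mm10) with STAR and counted by strand on Ensembl genes with featureCounts. They deposited raw counts per gene, with no normalization. Groups and replicate numbers came from the sample labels. Of 54532 identifiers 54409 were matched to a symbol, and the other 123 held 0.019% of the counts.

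RANKL was compared with control in edgeR 4.0.16 (R 4.3.3) with TMM scaling, its low count filter (minimum count 10), the quasi-likelihood test and Benjamini-Hochberg adjustment over 9971 genes at a threshold of 0.05. Ratios, CPM and shares were computed in Python 3.11.15 with pandas 2.3.3, and exact permutation tests with scipy 1.17.1. Steps were tested on simulated data. Totals of 583663 to 7807298 counts set the precision. Alternatives were DESeq2 1.42.0 (Wald test, size factors), limma-voom (limma 3.58.1), library totals, other filters, a replicate block, thinning, a depth covariate, an adjusted p of 0.01, a pseudocount of 1 for the ratios and each library left out. Chi-square per degree of freedom between libraries of a group was 1.29 to 15.4, so none was merged.

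The members and lists were chosen with earlier results of these data known. All 10 members and every other Eph family gene were named. From each other list, up to 5 called genes were named by size of change, if their mean level reached 5 CPM, and markers where their values stand beside a result. Gene coordinates are from GENCODE M21, upstream sequences from RefSeq on GRCm38.p6. Proteins were not analysed here.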

Additional observations from a re-analysis of the deposited data

Results flagged for a closer look

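Among the 36 groups of 4 libraries checked for a single library far from the rest, 2 passed Dixon's criterion. At 1 in 20, about 1.8 would be expected by chance alone. Control replicate 4 had 12.04 CPM of Epha4, against 5.367 CPM in the next library of its group. RANKL replicate 1 had 41.98 CPM of Efna1, against 25.81 CPM in the next. Each is the shallowest library of its group. Without control replicate 4 the log2 fold change of Epha4 was 2.05 in place of 1.93. Without RANKL replicate 1 that of Efna1 was -0.45 in place of -0.32 (edgeR adjusted p = 0.079), the lowest value of Efna1 with any 1 library left out. The cause of either value was not tested.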

How the results depend on the processing

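Of 86 log2 fold changes of single genes under other settings, 73 kept their direction and side of the threshold, as did 71 of 80 with a library left out. Between 4 and 6 members passed under the alternatives. With at least 10 counts in every library, 1 member rose, since Epha4 was not tested there. Over all genes, thinning every library to the shallowest total gave 1416 calls (764 higher, 652 lower) in place of 2587, an adjusted p of 0.01 gave 1636 (707 lower), and the log2 library total as a covariate left 808 lower in place of 1232. Leaving out single libraries gave 1853 to 2601 calls, 1039 to 1367 higher and 814 to 1234 lower, the fewest without RANKL replicate 4. The sign of Epha1 turned with limma-voom (-0.01), without a filter (-0.01) and with the covariate (-0.02), and ran from -0.08 to 0.15 with libraries left out, while thinning gave 0.47. That of Ephb3 turned with the covariate (0.02), and Efna1 was at 0.00 after thinning. Ephb4 also passed with library totals alone (0.40). Epha4 and Efna2 had too few counts to be tested after thinning, and passed with the covariate (1.39 and 2.13). Efna4 did not pass after thinning (-0.60, adjusted p = 0.19), and Efnb1 not with the covariate. The cause of these shifts was not tested. The labels do not say whether the replicate numbers pair the libraries. Deviations of same-numbered libraries correlated at -0.00724, -0.0334, 0.101 and 0.035, and libraries 3 and 4 but not 1 and 2 correlated best with their own number. Correlations this low, some from shallow libraries, neither show a pairing nor exclude one. With the replicate number as a block, 2610 genes passed and Ephb4 with them (0.41, adjusted p = 0.04). Epha2 and the 11 other untested family genes did not reach the 5.39 CPM that the low count filter asks of 4 libraries. Depth limits what the shallow libraries show of them, since 3 counts are 5.14 CPM in the shallowest. Epha6, Epha8, Ephb6 and Efna5 had 0 counts also in the deepest library, where 3 counts are 0.384 CPM.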
